A study of Mus musculus with 47 samples.

Results

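Neurexins, neuroligins and LRRTM proteins are adhesion molecules that join the presynaptic and postsynaptic sides of a synapse. Neurexins sit on the axon terminal and bind partners across the cleft, among them the neuroligins and the leucine-rich repeat LRRTM proteins of the postsynaptic membrane. Netrin-G ligands, of which Lrrc4c is one, form a parallel pair with netrin-G proteins on axons. In the hippocampus these bridges are known for helping excitatory synapses form and for holding glutamate receptors in place. The genes described here are Nrxn2 and Nrxn3 (neurexins), Nlgn1 and Nlgn3 (neuroligins), Lrrtm1, Lrrtm2, Lrrtm3 and Lrrtm4, and Lrrc4c. They were chosen by name, and all 9 were found among the 35486 genes of the hippocampal count table.

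Bulk RNA-seq was done on the hippocampus of 47 male C57BL/6J mice, 1 library per mouse. The Young Veh group (n = 13) received vehicle and the Young PF4 group (n = 12) received platelet factor 4, a chemokine released from platelet granules. The Old Veh group (n = 12) and the Old PF4 group (n = 10) received the same treatments. The labelled ages ran from 3.75 to 5.26 months in Young Veh, from 4.08 to 5.03 in Young PF4, from 17.47 to 19.97 in Old Veh and from 17.4 to 20.23 in Old PF4. According to the study's description of its methods, the protein was mouse PF4, given every day into the peritoneal cavity. No group carried a transgene or deletion by its labels, and every value below is for male mice of 1 inbred strain. The comparisons ask how aging changes these genes and whether PF4 changes them in old or in young mice.

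The promoters of Lrrtm4 and Lrrc4c are shown because each of these genes varied with Nlgn1 across libraries, as described further on. Of the 2 windows of Nlgn1 itself, 1 holds annotated exon bases and the bases after the start of the other are in none of its annotated transcripts, so neither is shown. RefSeq start sites on GRCm38.p6 gave 10 windows for 6 of the 9 genes (none matched for Nrxn2, Nlgn3 and Lrrtm2). Each printed stretch is the 250 bases before the start, 5′ to 3′, in lower case, with motif matches in capitals. Both strands were searched for 5 motifs. The E-box CACGTG occurs in 6.02% of 32851 windows of this length. The core of the cAMP response element, TGACGT, occurs in 6.47% of them. The GC box GGGCGG occurs in 32.7%. The TATA box TATAAA occurs in 12.4%. The CCAAT box occurs in 33.8%. No stretch below holds matches to more than 1 of these motifs.
Lrrtm4, chr6:80018627-80018876, + strand: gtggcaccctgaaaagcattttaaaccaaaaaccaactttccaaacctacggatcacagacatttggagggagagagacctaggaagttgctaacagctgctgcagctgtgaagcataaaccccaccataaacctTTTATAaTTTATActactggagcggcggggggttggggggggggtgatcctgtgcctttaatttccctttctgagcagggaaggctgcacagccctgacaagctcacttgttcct
Lrrc4c, chr2:96317919-96318168, + strand: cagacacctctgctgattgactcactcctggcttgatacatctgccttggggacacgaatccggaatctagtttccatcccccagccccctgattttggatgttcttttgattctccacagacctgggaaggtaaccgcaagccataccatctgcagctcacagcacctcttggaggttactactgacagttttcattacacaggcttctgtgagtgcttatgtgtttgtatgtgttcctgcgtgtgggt
The Lrrtm4 stretch holds the TATA box letters at 2 positions, on the - strand, and none of the other motifs. A second Lrrtm4 window (80019393 to 80019642) holds annotated exon bases and is not shown, and it holds none of the 5 motifs. The Lrrc4c stretch holds none of the 5. The GC content was 49.2% for Lrrtm4 and 49.6% for Lrrc4c, and the median over all windows was 52.4%.

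The genes differ widely in size and in what lies around them in the GRCm38 annotation. Nrxn3 spans 1612060 bases of chromosome 12 (88722876 to 90334935, + strand), Lrrc4c spans 1313498 bases of chromosome 2 (96318169 to 97631666, + strand), and Nlgn1 spans 906246 bases of chromosome 3 (25426215 to 26332460, - strand). Nrxn2 lies on chromosome 19 (6418731 to 6544169, + strand) and Nlgn3 on the X chromosome (101299168 to 101325963, + strand). Lrrtm4 lies on chromosome 6 (80018877 to 80810143, + strand), and 9 other annotated entries fall within its span. The other LRRTM genes are each nested inside an alpha-catenin gene on the opposite strand. Lrrtm1 (chromosome 6, 77242689 to 77257791) lies within Ctnna2, Lrrtm2 (chromosome 18) within Ctnna1, and Lrrtm3 (chromosome 10, 63928472 to 64090277) within Ctnna3. Reads carried no strand, and Lrrtm2 shares 95 exon bases with Ctnna1, which held 33442 reads in all libraries against 31098 for Lrrtm2. Nlgn3 shares 3823 exon bases with Gm21986 on its own strand (44462 against 130895 reads), so counts of the overlapping pair may be split between them. Exon bases are also shared with entries on the opposite strand. Lrrtm4 shares 1543 with Gm4409 (7922 reads), Nlgn1 1229 with A830092H15Rik (4257 reads) and Nrxn3 439 with Gm37980 (7329 reads). Nrxn2 shares 207 with Gm14964 (4485 reads) and 682 with Slc22a12 (144 reads).

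The libraries held between 2242879 and 21112908 counts each, with a median of 10374007, and the 9 genes held between 87 reads (Lrrtm3, Old Veh) and 6826 reads (Nlgn1, Young Veh) in a single library. The first 8 columns of the count table had totals of at most 4963272, below those of the other libraries, and 4 of these 8 were Old Veh. Library numbers in the labels do not overlap between young and old mice, nor between Old Veh and Old PF4, so that neither age nor PF4 in old mice can be told apart from library number. All 8 fixed neuron markers and the dentate granule, CA1 and CA3 neuron markers were above 0 in every library, as the tissue label requires. The summed level of the 10 choroid plexus markers, a tissue next to the hippocampus, ran from 12.0 to 4259 CPM (counts per gene scaled to the library total), with medians of 1943 in Young Veh, 2380 in Young PF4, 47.1 in Old Veh and 65.9 in Old PF4. Of these 10 markers, 4 were at 0 in at least 1 library. Young Veh replicate 4 and Old PF4 replicate 8 had the lowest values of a length index, the level of long transcripts minus that of short ones, at -0.33 and -0.20 after centering on the group, where the other libraries ran from -0.16 to 0.19.

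All 9 genes passed the filter on low counts, and their levels per transcript length are given first. Over the 47 libraries, Lrrtm1 had the highest mean level at 54.4 ± 3.73 CPM per kilobase of its longest transcript (SD). Lrrc4c followed at 36.6 ± 4.29, Nrxn3 at 33.2 ± 2.07 and Nlgn3 at 31.7 ± 1.69. Lower levels were those of Lrrtm4 (24.9 ± 3.62), Nlgn1 (19.5 ± 2.76) and Nrxn2 (18.6 ± 2.49). Lrrtm2 (11.6 ± 1.19) and Lrrtm3 (10.0 ± 1.51) were at the bottom. Lrrtm1 exceeded Lrrc4c in 46 of 47 libraries, Lrrtm4 exceeded Nlgn1 in 46, Nrxn2 exceeded Lrrtm2 in 46 and Nlgn3 exceeded Lrrtm4 in 44. The remaining neighbors overlapped within their spread: Lrrc4c exceeded Nrxn3 in 37 libraries, Nrxn3 exceeded Nlgn3 in 34, Nlgn1 exceeded Nrxn2 in 29 and Lrrtm2 exceeded Lrrtm3 in 37. With the length of all exons merged in place of the longest transcript, the levels of Nrxn2 and Nrxn3 were 8.96 and 20.9, and Nrxn2 was then the lowest of the 9.

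**Figure D1:**
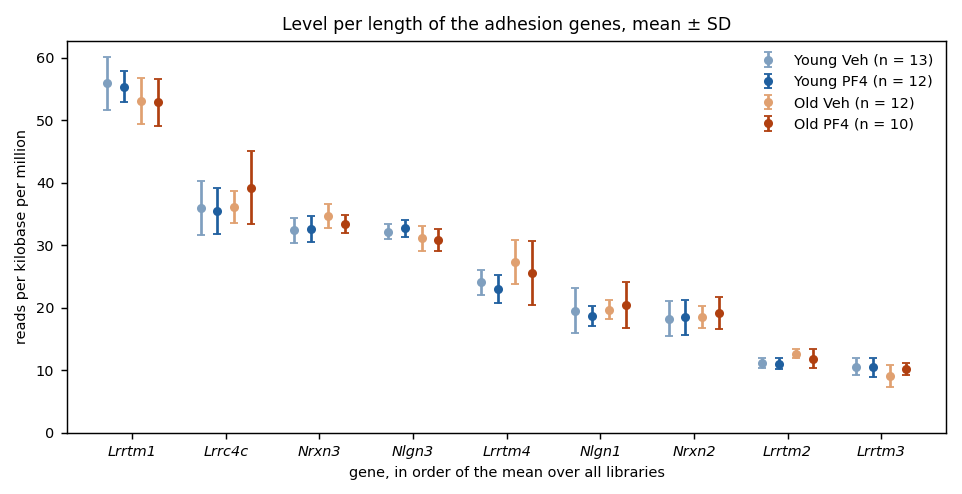
Level of each gene in CPM per kilobase of longest transcript (y axis), as the mean (point) and SD (bar) of each group. Lrrtm1 lies highest, between 52.8 and 55.9 in the 4 groups, and Lrrtm3 lowest, between 9.09 and 10.5.

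The genes also differed in how steady they were between mice of a group. The within-group SD of log2 CPM was 0.072 for Nlgn3 and 0.083 for Nrxn3, and 0.60% and 2.08% of all genes tested had an SD at or below theirs. Among genes of the same level these shares were 6.80% and 16.03%, and for Nrxn2, Lrrtm3 and Nlgn1 they were 90.3%, 84.1% and 83.4%. Lrrtm1 (0.095) and Lrrtm2 (0.12) came next. Lrrc4c (0.15), Nlgn1 (0.18), Lrrtm4 (0.18), Nrxn2 (0.21) and Lrrtm3 (0.21) varied more. The standard error of the aging difference, described next, was accordingly 0.032 on the log2 scale for Nlgn3 and 0.083 for Lrrtm3.

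**Figure D2:**
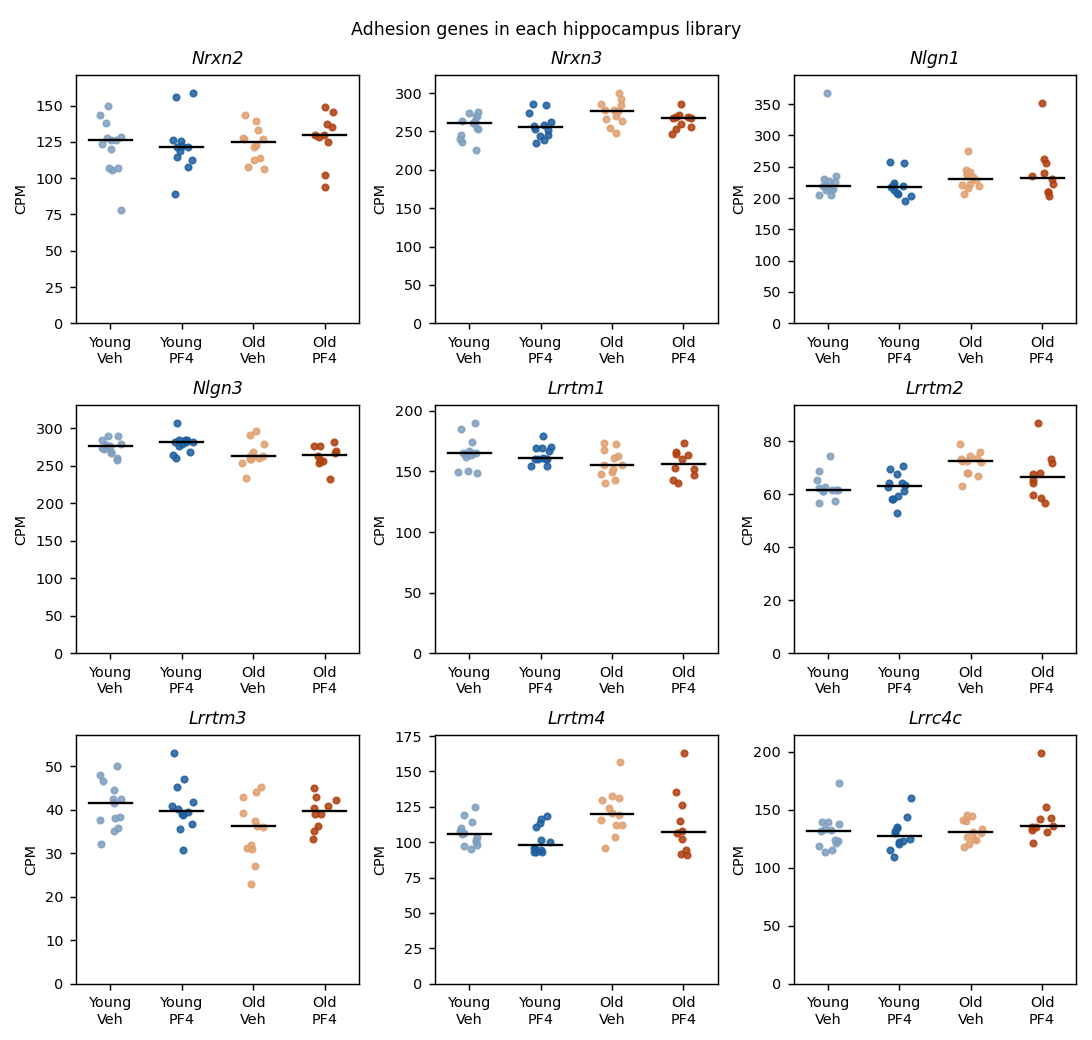
CPM (y axis, from 0) of each gene in every library by group, with the group median as a line. The Lrrtm2 points of Old Veh lie all above the Young Veh median, while Nlgn1 and Lrrc4c each have 1 library far above the rest in Young Veh and in Old PF4.

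Aging was tested first, as Old Veh against Young Veh. One of the 9 genes, Lrrtm2, passed the test (Benjamini-Hochberg adjusted p below 0.05 over 17778 genes), and it was higher in old mice, where 2.77% of all genes tested passed. At an unadjusted p below 0.05 there were 4 genes (Nrxn3, Lrrtm2 and Lrrtm4 higher, Lrrtm3 lower), against 15.2% of all genes. The median log2 fold change of the 9 was 0.01, beside -0.01 over all genes tested. In whole tissue, fewer cells of a type and less RNA per cell cannot be told apart.

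Lrrtm2, a neurexin-binding protein that helps hold AMPA receptors at the postsynaptic membrane, ran from 56.9 to 74.4 CPM in Young Veh (median 61.7) and from 63.2 to 79.0 in Old Veh (median 72.7). All 12 Old Veh libraries lay above the Young Veh median, and 3 lay above the highest Young Veh library, so the groups still overlapped. Lrrtm2 rose by a log2 fold change of 0.18 with a standard error (SE) of 0.050, or 13.7% (adjusted p = 0.0274, edgeR quasi-likelihood test). Its host Ctnna1, a cell junction catenin with which it shares exon bases, had a log2 difference of -0.12 (SE 0.092, adjusted p = 0.581 from the same edgeR test). Settings that ended the call included leaving out the 8 low-total libraries (0.16, adjusted p = 0.128 by edgeR) or Old Veh replicate 3 (0.18, adjusted p = 0.0513 by edgeR). They also included adding the choroid plexus score (0.18, adjusted p = 0.0594 by edgeR) or library number (0.18, SE 0.10, adjusted p = 0.816 by edgeR) as a covariate. Library number does not overlap between ages, so the last of these fits cannot tell them apart. The difference stayed between 0.17 and 0.21 with any single library left out.

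Lrrtm4, which binds heparan sulfate proteoglycans as well as neurexins and is known from dentate granule neurons, ran from 95.1 to 125 CPM in Young Veh (median 106) and from 95.8 to 157 in Old Veh (median 119.9). Old Veh lay above the Young Veh median in 10 of 12 libraries and above the highest Young Veh library in 4. The log2 difference was 0.19 (SE 0.070, adjusted p = 0.143 from edgeR), which was not called. With the gene-centered length index as a covariate, an alternative chosen after seeing the data, Lrrtm4 had a log2 fold change of 0.25 (adjusted p = 0.0105 from edgeR).

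Lrrtm3, the least abundant of the genes per length, ran from 32.2 to 50.1 CPM in Young Veh (median 41.6) and from 22.97 to 45.3 in Old Veh (median 36.2). Of the 12 Old Veh libraries, 9 lay below the Young Veh median and 5 below the lowest Young Veh library. The log2 difference was -0.21 (SE 0.083, adjusted p = 0.182 from edgeR), not called. Its host Ctnna3 held few reads, with a median of 2.8 CPM in Young Veh and 3.8 in Old Veh, and had a log2 difference of 0.40 (SE 0.15, adjusted p = 0.165 from edgeR).

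Lrrtm1, the most abundant per length and likewise a postsynaptic neurexin ligand, ran from 149 to 189.7 CPM in Young Veh (median 165) and from 141 to 174 in Old Veh (median 155). The groups overlapped, with 9 of 12 Old Veh libraries below the Young Veh median. The log2 difference was -0.08 (SE 0.039, adjusted p = 0.352 from edgeR). With the choroid plexus score as a covariate it was -0.14 (adjusted p = 0.0188 from edgeR), past the threshold.

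Among the neurexins, Nrxn3 ran from 226 to 275 CPM in Young Veh (median 261) and from 247.5 to 300.2 in Old Veh (median 277). Old Veh exceeded the highest Young Veh library in 7 of 12 libraries and its median in 10. The log2 difference was 0.10 (SE 0.036, adjusted p = 0.132 from edgeR), not called. Over the 10 other settings it ran from 0.064 to 0.20, and none of them called it. Nrxn2, the most GC-rich of the genes (62.4% of its longest transcript), ran from 78.4 to 150.0 CPM in Young Veh and from 106 to 143 in Old Veh. The medians were 126 and 125, and the log2 difference was 0.02 (95% confidence interval -0.14 to 0.18).

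The neuroligins are the postsynaptic partners of neurexins: Nlgn1 is known from excitatory synapses and Nlgn3 from both excitatory and inhibitory ones. Nlgn1 ran from 204 to 368 CPM in Young Veh (median 218) and from 206 to 275 in Old Veh (median 231), and its log2 difference was 0.01 (95% confidence interval -0.13 to 0.16). Its Young Veh maximum was replicate 4, and without that library the difference was 0.09 (adjusted p = 0.449 by edgeR, the lowest of the fits with 1 library left out). Nlgn3 ran from 258 to 289.6 CPM in Young Veh (median 276) and from 234 to 296.5 in Old Veh (median 262), with a log2 difference of -0.05 (95% confidence interval -0.11 to 0.02). Nlgn3 thus spread to both sides of the Young Veh range, with 2 Old Veh libraries above it and 2 below. Lrrc4c, the receptor of netrin-G1, ran from 114 to 173.5 CPM in Young Veh (median 131) and from 118 to 145.5 in Old Veh (median 130.5). Its log2 difference was 0.0056 (95% confidence interval -0.12 to 0.13).

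**Figure D3:**
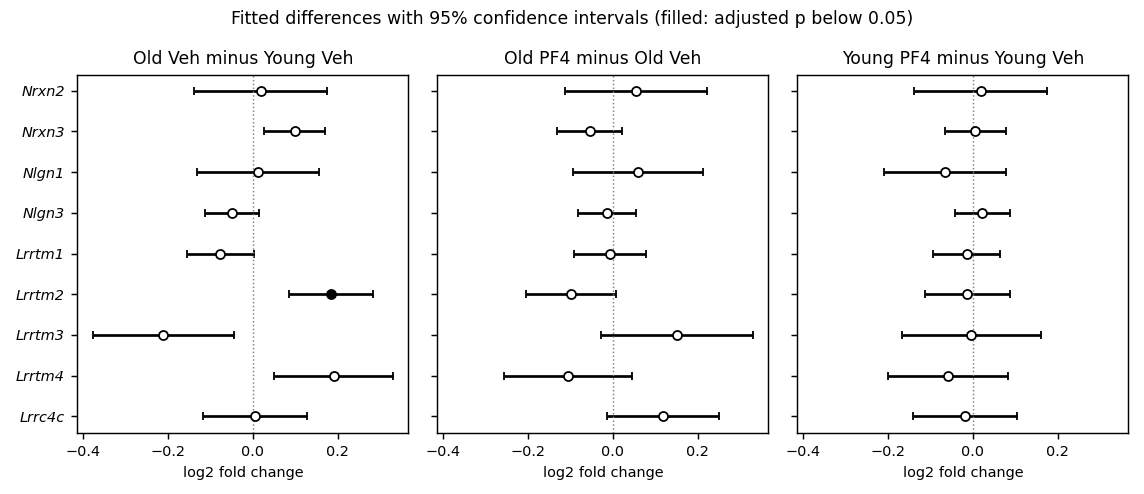
Fitted log2 fold change (x axis) of each gene in the aging comparison and in the PF4 comparisons of old and of young mice, as points with 95% confidence intervals. The only filled point, past the threshold, is Lrrtm2 with aging (0.18).

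PF4 in old mice was tested as Old PF4 against Old Veh. None of the 9 genes passed the test by edgeR, and 0.0337% of all genes tested did. None had an unadjusted p below 0.05, against 6.2% of all genes, and DESeq2 called none of the 9 either. The median log2 fold change of the 9 was -0.0071, beside 0.0086 over all genes.

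The largest estimates between the old groups were those of Lrrtm3, Lrrc4c, Lrrtm4 and Lrrtm2. Lrrtm2 ran from 56.6 to 86.8 CPM in Old PF4 (median 66.5, Old Veh 72.7), with 8 of 10 libraries below the Old Veh median, 3 of them below its lowest library, and 1 above its highest. The log2 difference was -0.10 (95% confidence interval -0.20 to 0.01, adjusted p = 0.853 from edgeR). Lrrtm3 ran from 33.2 to 45.01 CPM in Old PF4 (median 39.7, Old Veh 36.2), inside the Old Veh range, with a log2 difference of 0.15 (95% confidence interval -0.03 to 0.33). Lrrtm4 ran from 91.3 to 163 CPM in Old PF4 (median 107, Old Veh 119.9), and its log2 difference was -0.10 (95% confidence interval -0.26 to 0.05).

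Lrrc4c ran from 121 to 199 CPM in Old PF4 (median 136, Old Veh 130.5), with 9 of 10 libraries above the Old Veh median and 2 above its highest library. The log2 difference was 0.12 (95% confidence interval -0.01 to 0.25). Old PF4 replicate 8 was the highest Old PF4 library for Nrxn2, Nrxn3, Nlgn1, Lrrtm3, Lrrtm4 and Lrrc4c. Without it, the difference of Lrrc4c was 0.05, that of Lrrtm4 -0.18, that of Nlgn1 -0.02 in place of 0.06 and that of Nrxn2 0.030. Without Old Veh replicate 12 the difference of Lrrtm4 was -0.069, and without Old PF4 replicate 1 that of Nrxn2 was 0.088. The remaining differences were 0.06 for Nrxn2, -0.05 for Nrxn3, -0.01 for Nlgn3 and -0.0071 for Lrrtm1, with adjusted p of at least 0.853 for all 9 genes by edgeR. The largest decrease and increase within these intervals were those of Lrrtm4 (-0.26) and Lrrtm3 (0.33).

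In young mice, Young PF4 lay close to Young Veh for each gene. None of the 9 passed the test by edgeR or DESeq2, as 0% of all genes tested did by edgeR, and none had an unadjusted p below 0.05, against 1.2% of all genes. The log2 differences ran from -0.07 for Nlgn1 to 0.02 for Nlgn3, with adjusted p of 1.0 throughout. For the steadiest genes the 95% confidence intervals were narrow, from -0.04 to 0.09 for Nlgn3 and from -0.07 to 0.08 for Nrxn3. For Lrrtm3 the interval ran from -0.17 to 0.16. The Nlgn1 difference turned to 0.0089 without Young Veh replicate 4.

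The difference between the PF4 effects in old and in young mice was tested as an interaction. It was not past the threshold for any of the 9 genes by edgeR or DESeq2 (0% of all genes tested by edgeR), none had an unadjusted p below 0.05 (3.98% of all genes), and the estimates ran from -0.09 for Lrrtm2 to 0.15 for Lrrtm3 on the log2 scale. The Lrrtm2 estimate had a 95% confidence interval from -0.23 to 0.06 and the Lrrtm3 estimate one from -0.09 to 0.40.

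Under PF4, old and young mice were compared as well, a comparison added after seeing the data. Between Old PF4 and Young PF4, 0 of the 9 genes passed the edgeR test (0.332% of all genes tested) and DESeq2 called 0, while Nlgn3 (-0.09, SE 0.034) and Lrrc4c (0.14, SE 0.065) had an unadjusted p below 0.05, against 8.27% of all genes. The median log2 difference of the 9 was 0.06, beside 0.0041 over all genes. Lrrtm2 ran from 52.9 to 70.6 CPM in Young PF4 (median 63.0), and 3 of 10 Old PF4 libraries lay above that range. Its log2 difference was 0.10 (SE 0.053, adjusted p = 0.657 from edgeR), beside 0.18 in vehicle mice. Lrrtm4 had 0.14 here and 0.19 in vehicle mice, Nrxn3 0.04 and 0.10, Lrrtm3 -0.06 and -0.21, and Lrrtm1 -0.07 and -0.08. The remaining genes had differences of larger size under PF4: Nlgn1 0.14 and 0.01, Lrrc4c 0.14 and 0.0056, Nrxn2 0.06 and 0.02, and Nlgn3 -0.09 and -0.05. Single libraries moved these values. Without Old PF4 replicate 8 the difference under PF4 was 0.075 for Lrrc4c, 0.066 for Lrrtm4, 0.059 for Nlgn1 and 0.024 for Nrxn3. Without Old PF4 replicate 1 it was 0.053 for Lrrtm2. It was -0.011 for Lrrtm3 without Young PF4 replicate 1 and 0.016 for Nrxn2 without Young PF4 replicate 2. The interaction estimates above are the tests of how these aging differences depend on treatment.

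Neurexin partners, other synaptic adhesion genes and scaffolds are given beside the 2.77% of all genes that passed with aging. Of 19 other neurexin family members and direct partners tested, 1 passed in the aging comparison by edgeR: Nxph4, a secreted neurexophilin that binds neurexins, with a log2 fold change of -0.74 (SE 0.22, adjusted p = 0.0484). Of 40 other synaptic adhesion genes, 1 passed: Ncam2, a neural cell adhesion molecule, at 0.31 (SE 0.068, adjusted p = 0.00479 from edgeR). Among 24 genes for the scaffolds beneath these proteins, Dlg2, the PSD-93 scaffold, was among those that passed, with a log2 fold change of 0.40 (SE 0.055, adjusted p = 3.62e-06 from edgeR). The median log2 fold changes of the 3 lists were -0.02, 0.0032 and -0.0046, beside -0.01 over all genes tested. Dlg2 spans 30 other annotated entries and Ncam2 spans 3, so reads without strand may be shared there. With library number as a covariate no gene of the table was called with aging by edgeR (0 of 17778), these genes included. Library numbers do not overlap between ages, so that fit cannot tell aging from library number.

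With PF4 in old mice, where 0.0337% of all genes passed, 1 gene of these lists did, Dlg2, with a log2 fold change of -0.29 (SE 0.059, adjusted p = 0.0367 from edgeR). No gene was called, Dlg2 included, with the old groups fitted alone, with library number or the gene-centered length index as a covariate, without the 8 low-total libraries, or without any 1 of Old Veh replicates 1, 2, 3, 5 and 7 and Old PF4 replicates 5, 6, 7 and 8. This comparison and that of aging share the Old Veh libraries. None of the 3 lists held a call in young mice or in the interaction.

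Across mice of a group, several of the genes varied together. Of 36 pairs, 7 had a group-centered correlation of log2 CPM with an adjusted p below 0.05 (Pearson, n = 47, 100000 permutations within groups, two-sided). By Pearson r over all libraries, the 2 highest pairs joined Nlgn1 to Lrrc4c and to Lrrtm4, while by rho the 2 highest were Nrxn2 with Nrxn3 and Lrrtm3 with Lrrc4c. Nlgn1 and Lrrc4c had r = 0.76 (rho = 0.50, permutation p = 2e-05 and 0.0004, adjusted 0.00036 and 0.0036), with r from 0.63 to 0.85 inside the 4 groups. Nlgn1 and Lrrtm4 had r = 0.68 (rho = 0.53, permutation p = 1e-05 and 0.00035, adjusted 0.00036 and 0.0036), with r from 0.51 to 0.85 inside the groups. Lrrtm4 and Lrrc4c had r = 0.52 (rho = 0.35, permutation p = 0.00051 and 0.0172, adjusted 0.00459 and 0.086). Over the 39 libraries that exclude the 8 of low total, these correlations were 0.81, 0.72 and 0.60.

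Part of this rested on Young Veh replicate 4 and Old PF4 replicate 8. Nlgn1 was at 368 and 352 CPM in these libraries, and Lrrc4c at 173.5 and 199. Without both, r was 0.52 for Nlgn1 and Lrrc4c, 0.60 for Nlgn1 and Lrrtm4, and 0.29 for Lrrtm4 and Lrrc4c. Dropping those 2 libraries that lay most distant from the first gene's median gave 0.54, 0.61 and 0.34. The r of Lrrtm4 with Lrrc4c was the lowest of the 3 in both cases, and inside the groups it ran from 0.21 in Old Veh to 0.70 in Young Veh, with 0.44 in Young PF4 and 0.69 in Old PF4.

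The neurexins formed a pair of their own. Nrxn2 and Nrxn3 had r = 0.52 (rho = 0.61, permutation p = 0.00044 and 2e-05, adjusted 0.00459 and 0.00072, r = 0.48 without 2 libraries). Over the 39 libraries of higher total r was 0.57. Nlgn3 and Lrrtm1 had r = 0.43 (rho = 0.43, permutation p = 0.00302 and 0.00369, adjusted 0.0181 and 0.0266, r = 0.41 without 2 libraries and 0.45 over the 39). Lrrtm3 and Lrrc4c had r = 0.44 (rho = 0.56, permutation p = 0.00079 and 0.00015, adjusted 0.00569 and 0.0027, r = 0.52 without 2 libraries and 0.48 over the 39). Lrrtm2 moved the other way from Lrrc4c, with r = -0.43 (rho = -0.40, permutation p = 0.00859 and 0.00627, adjusted 0.0442 and 0.0376, r = -0.47 without 2 libraries and -0.46 over the 39). That r was -0.33 without Young Veh replicate 4 and Old PF4 replicate 8, and -0.27 after the length index, described next, was removed.

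**Figure D4:**
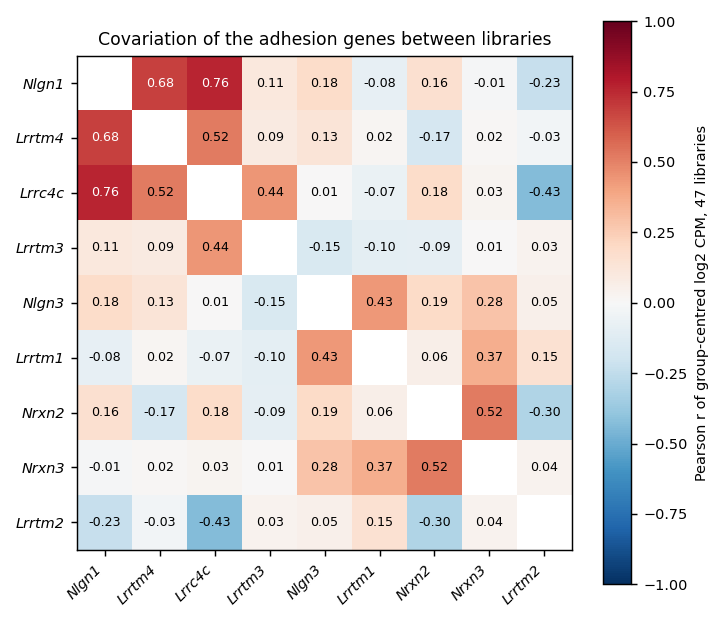
Pearson r of group-centered log2 CPM for each pair of genes over the 47 libraries, from -1 (blue) to 1 (red). Nlgn1 has the highest r with Lrrc4c (0.76) and Lrrtm4 (0.68), Nrxn2 with Nrxn3 and Lrrtm4 with Lrrc4c are both at 0.52, and Lrrtm2 is negative with Lrrc4c (-0.43).

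Measures of the library moved with several of these genes. Of 36 relations with 4 library measures, 11 had an adjusted p below 0.05 for r. The length index had r = -0.68 with Lrrc4c (rho = -0.49, permutation p = 3e-05 and 0.00079, adjusted 0.000216 and 0.00711, r = -0.46 without 2 libraries and -0.69 over the 39 of higher total). Its r with Lrrtm4 was -0.49 (rho = -0.35, permutation p = 0.00027 and 0.0176, adjusted 0.00162 and 0.0633, r = -0.33 without 2 libraries and -0.59 over the 39). For Nlgn1 the r of -0.62 (permutation p = 0.00108, adjusted 0.00555, -0.70 over the 39) rested on 2 libraries, since rho was -0.15 (permutation p = 0.313, adjusted 0.433) and r was -0.23 without them. Lrrtm2 went the other way, with r = 0.37 (rho = 0.36, permutation p = 0.0116 and 0.0151, adjusted 0.0418 and 0.0605), with 0.26 without 2 libraries and 0.45 over the 39. None of these genes is in the short set of the index (at most 2006 bases). The longest transcripts of Nlgn1 (11807 bases) and Lrrtm2 (5673) are in its long set (at least 4594). Those of Lrrtm4 (4435) and Lrrc4c (3646) are in neither set. Why their signs differ was not tested. After the length index was removed by regression, r was 0.59 for Nlgn1 and Lrrc4c, 0.55 for Nlgn1 and Lrrtm4, and 0.30 for Lrrtm4 and Lrrc4c. It was 0.71 for Lrrtm3 and Lrrc4c, the highest of the 36 pairs on this measure, and 0.56 for Nrxn2 and Nrxn3.

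**Figure D5:**
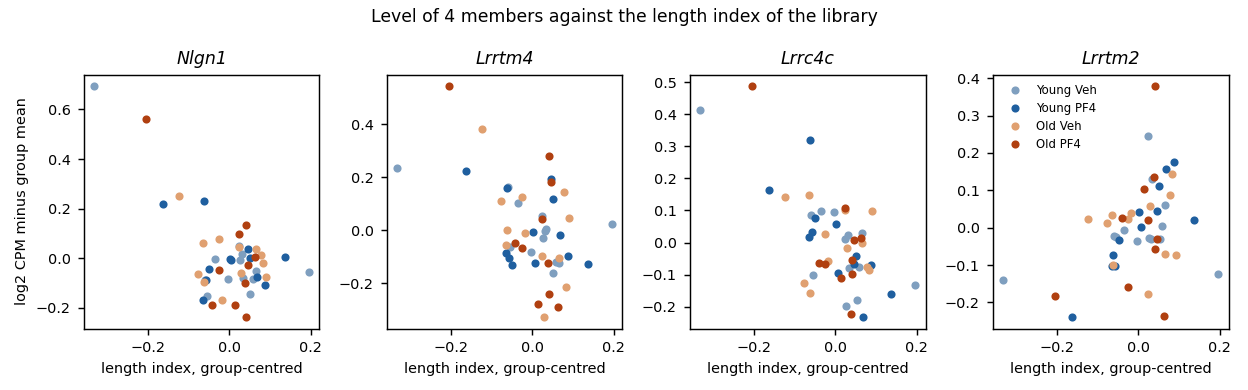
Group-centered log2 CPM (y axis) of Nlgn1, Lrrtm4, Lrrc4c and Lrrtm2 against the group-centered length index of the library (x axis, log2 scale), 1 point per library colored by group. Young Veh replicate 4 (-0.33) and Old PF4 replicate 8 (-0.20) lie at the left, high for the first 3 genes.

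Base composition moved with Lrrtm4 and Nlgn1 as well, and with Nrxn2. Nlgn1 (38.9% GC), Lrrtm2 (38.4%) and Lrrtm4 (38.4%) have GC-poor longest transcripts, and Nrxn2 is GC-rich. A GC index, the level of GC-rich transcripts minus that of GC-poor ones, had r = -0.69 with Lrrtm4 (rho = -0.61, permutation p = 1e-05 each, the smallest they can give, adjusted 0.00012 and 0.00036, r = -0.63 without 2 libraries and -0.69 over the 39). Its r was -0.57 with Nlgn1 (rho = -0.49, permutation p = 1e-05 and 0.00123, adjusted 0.00012 and 0.00886, r = -0.43 without 2 libraries and -0.63 over the 39). With Nrxn2 it was 0.40 (rho = 0.39, permutation p = 0.00495 and 0.00785, adjusted 0.0223 and 0.0404, r = 0.49 without 2 libraries and 0.28 over the 39). Not every gene of low or high GC content followed the index. Lrrtm2 had r = -0.16 (rho = -0.06, permutation p = 0.408 and 0.706, adjusted 0.524 and 0.770). Lrrtm1, at 54.7% GC, had r = 0.22 (permutation p = 0.154, adjusted 0.233).

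The neuron marker score, the mean log2 CPM of the 8 neuron markers, went with Lrrtm1 and Lrrc4c. It had r = 0.61 with Lrrtm1 (rho = 0.60, permutation p = 1e-05 and 4e-05, adjusted 0.00012 and 0.00048, r = 0.58 without 2 libraries and 0.59 over the 39). With Lrrc4c it had r = 0.57 (rho = 0.61, permutation p = 2e-05 each, adjusted 0.00018 and 0.00036, r = 0.54 without 2 libraries and 0.55 over the 39). The other 2 relations past the threshold, with Nlgn1 and Nrxn3, had r of 0.36 each. No gene had an adjusted p below 0.05 with the library total, where r ran from -0.33 to 0.34.

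The genes most like each member were found by the highest r of group-centered log2 CPM over the 47 libraries, among 11554 genes of sufficient level. Nlgn1 was closest to Mllt11 (r = 0.93) and Calm2, a calmodulin gene (0.92), and Lrrc4c to Snap47 (0.89) and Scg5 (0.86). Lrrtm4 was closest to Ppfia2, a liprin of the presynaptic active zone (0.82), and Sdcbp, the syntenin scaffold (0.79). Nrxn2 was closest to Hist3h2ba (0.81) and Thy1 (0.80), and Lrrtm3 to Nap1l5 (0.79) and Necab1 (0.78). Lrrtm1 was closest to Nefl, the neurofilament light chain and one of the 8 neuron markers (0.75), and Rnf187 (0.73). The remaining genes had weaker neighbors: Ubr1 (0.66) and Usp45 (0.65) for Lrrtm2, Cdip1 (0.63) and Gm14703 (0.62) for Nlgn3, and Elavl3 (0.56) and Ube2d1 (0.56) for Nrxn3. These correlations are descriptions over libraries that share the length and GC measures given above.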

How the data were processed

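Counts of reads per gene for 47 hippocampus libraries were read as the authors deposited them, raw and unnormalized. Per the labels, RNA was made into cDNA by Smart-Seq2 and into unstranded Nextera XT libraries, reads were trimmed with Trim Galore 0.3.7 and aligned with STAR 2.5.3a to GRCm38, and DESeq2 was used. Per the study's methods, samples of low coverage were excluded. The counting tool is not given in the sources used here. Groups came from the age and treatment in the labels, and 1 library of each mouse is 1 replicate.

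The quasi-likelihood test of edgeR 4.0.16 (R 4.3.3) was fitted to all 4 groups together with TMM scaling and filterByExpr, which 17778 of 35486 genes passed, the 9 genes included. Benjamini-Hochberg adjustment ran over all genes tested, with calls at an adjusted p below 0.05. CPM are counts scaled to the TMM-adjusted library total, log2 CPM used a prior count of 2, and levels per length used the longest GENCODE M21 transcript. The length index contrasts transcripts of at least 4594 bases with those of at most 2006 bases (17666 genes had a length), and the GC index contrasts those of at least 54.2% GC with those of at most 44.1%. Permutations, GC content and figures were done in Python 3.11.15, and the scripts were tested on simulated counts.

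Alternatives were DESeq2 1.42.0, its size factors, no count filter, a fit of the compared groups by themselves, a block on replicate number, covariates (length index, library number, choroid plexus score), leaving out the 8 low-total libraries, and leaving out each library in turn. The gene-centered length index, the GC index and the comparison of Old PF4 with Young PF4 were added after seeing the data. The 9 genes and the lists were chosen with earlier results of these data known. Named genes are the 9, the entries that overlap them, the genes of the fixed lists (partners, other adhesion genes, scaffolds) that were called, and the 2 genes most like each. One item of the scaffold list is not reported here.

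The marker lists were 14, of which choroid plexus had a median log2 fold change of -0.92 with aging (0 of 10 called). Calls among markers with aging were Map2 (neuron, higher), Aldh1l1 (astrocyte, lower) and Gpr17 (oligodendrocyte precursor, lower), and Gfap was called between Old PF4 and Young PF4.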

Additional observations from a re-analysis of the deposited data

Results flagged for a closer look

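In the Old PF4 group of 10 libraries, replicate 8 stood far above the others for 2 of the 9 genes. Nlgn1 was at 352 CPM there, the next library was at 262, and on the log2 CPM scale, on which the libraries were compared, the gap was 0.533 of the range of the group, above the critical value of 0.466 in Dixon's test. Lrrc4c was at 199 CPM there, the next library was at 153, and the gap on the log2 CPM scale was again 0.533 of the range. Chance alone would flag about 1 group in 20, and 9 were tested, all in Old PF4, since the other groups hold more than 10 libraries. The same library had a gene-centered length index of -0.23 (-0.20 when centered on the group), the lowest of its group, and a total of 12380047 counts. Its CA1 neuron and oligodendrocyte precursor marker scores (mean log2 CPM 6.55 and 3.90) were also the lowest of its group. The same held for Young Veh replicate 4 in its own group (6.54 and 4.04). The part of Old PF4 replicate 8 in these values was not tested further than by leaving that library out.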

How the results depend on the processing

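Of the values recomputed under another setting, 338 kept their direction and side of the threshold, and none of the 9 genes was called in a PF4 comparison under any setting run. Lrrtm2 stayed higher with aging throughout, and its call was lost under the settings named in the report and under the replicate block. The number of the 9 genes called with aging was 0 with the replicate block, with library number and without the 8 low-total libraries, and 2 with the gene-centered length index (1 in the report). Genes called with aging, 492 in the report, numbered 837 with the group-centered length index, 901 with the gene-centered one, 176 without the low-total libraries and 0 with library number. For PF4 in old mice (6 genes) the count was 23 by DESeq2, 22 with the group-centered length index, 10 with the choroid plexus score, and 0 with the groups fitted alone, with library number, with the gene-centered length index or without the low-total libraries. For Old PF4 against Young PF4 (59 genes) it was 93 by DESeq2, 21 with the groups alone, 120 and 98 with the group-centered and gene-centered length index, and 0 with library number. For the interaction (0 genes) it was 1 without the count filter and 1 with the group-centered length index. With library number the aging differences turned to -0.12 for Nlgn1, 0.046 for Nlgn3 and -0.17 for Lrrc4c, that of PF4 in old mice to 0.0030 for Lrrtm1, and those of PF4 in young mice to -0.022 for Nrxn3, -0.0023 for Nlgn3, 0.028 for Lrrtm3 and 0.028 for Lrrc4c. With the choroid plexus score the aging differences turned to -0.018 for Nrxn2, -0.017 for Nlgn1 and -0.021 for Lrrc4c, and those of PF4 to 0.0030 for Lrrtm1 in old and 0.00072 for Lrrtm3 in young mice. PF4 differences also turned to 0.013 for Lrrtm3 in young mice without the low-total libraries, and with the gene-centered length index to -0.031 for Nlgn1 in old and 0.0049 for Lrrc4c in young mice. None of these reversed values was called, and the cause was not tested. With merged exon length, levels per kilobase were 8.96 for Nrxn2, 20.9 for Nrxn3, 29.2 for Nlgn3, 18.0 for Lrrtm4 and 28.8 for Lrrc4c.

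With 1 library left out, genes called ran from 356 (without Old Veh replicate 3) to 593 with aging, from 0 to 20 for PF4 in old mice (0 without Old Veh replicate 1, 2, 3, 5 or 7 or Old PF4 replicate 5, 6, 7 or 8, and 20 without Old Veh replicate 11), and from 36 (without Young PF4 replicate 11 or 5) to 91 (without Young PF4 replicate 1) for Old PF4 against Young PF4. The members called with aging ran from 0 (without Old Veh replicate 3) to 1. Aging differences that changed sign ran from -0.010 to 0.044 for Lrrc4c, -0.011 to 0.085 for Nlgn1 and -0.020 to 0.046 for Nrxn2. For PF4 in old mice they ran from -0.027 to 0.0066 for Lrrtm1, -0.016 to 0.083 for Nlgn1 and -0.033 to 0.0035 for Nlgn3. For PF4 in young mice they ran from -0.050 to 0.021 for Lrrc4c, -0.027 to 0.0063 for Lrrtm1, -0.027 to 0.014 for Lrrtm2, -0.044 to 0.033 for Lrrtm3, -0.087 to 0.0089 for Nlgn1, -0.022 to 0.058 for Nrxn2 and -0.0071 to 0.020 for Nrxn3.

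Replicate numbers in the labels are shared between groups, and the replicate block gave 10 genes for PF4 in old mice, 90 for Old PF4 against Young PF4 and 0.18 for Lrrtm2 with aging (adjusted p = 0.0542 by edgeR). Same-numbered libraries deviated together in part of the pairs: over 12 pairs of the aging comparison r ran from -0.42 to 0.36, with 3 above 0.1 and 1 library closest to its own number, and over 10 pairs of old mice r ran from -0.29 to 0.33, with 5 above 0.1 and 2 closest to their own. Over 12 pairs of young mice r ran from -0.19 to 0.55, with 4 above 0.1 and 2 closest to their own. Since not every pair passed 0.1, they were treated as sharing a number only.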

Other observations

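The span of Lrrtm4 holds 9 other annotated entries with counts, 8 of them on its own strand without shared exon bases and with no coding annotation. In the aging comparison all 9 had a log2 fold change above 0, from 0.04 (Gm44230) to 0.63 (Gm44231), with a median of 0.24. None was called by edgeR (lowest adjusted p = 0.108), and 6 of the 9 had an unadjusted p below 0.05. Over all 17778 genes tested, 8047 were above 0 and 15.2% had such a p. With PF4 in old mice 8 of the 9 were below 0, with a median of -0.14, and 2 had an unadjusted p below 0.05, where 8182 of all genes were below 0 and 6.2% had such a p. Both comparisons share the Old Veh libraries.

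The 3 counted entries within the span of Nrxn3 had aging differences of 0.03 (Gm37980), 0.24 (Gm48700) and 0.54 (Gm48692). None was called, while 2 of the 3 had an unadjusted p below 0.05 (15.2% of all genes). With PF4 in old mice, which shares Old Veh, all 3 were below 0 (8182 of 17778 genes). Their median was -0.26, and 1 had such a p (6.2% of all genes). With PF4 in young mice all 3 were below 0 as well, with a median of -0.15. The 2 entries tested over Nlgn1 had 0.11 and 0.19 with aging and -0.05 and 0.07 with PF4 in old mice, none with such a p. The 2 tested over Nrxn2 had 0.01 and 0.47, and 0.06 and -0.42, and 1 had such a p in each comparison. Entries of a locus overlap its gene and reads carried no strand, so their counts may not be independent of the gene's. Where their reads come from was not tested.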
